A study of Sycon ciliatum with 26 samples.

Results

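The first 2 days of regeneration in the calcareous sponge Sycon ciliatum were set against cells dissociated from an adult. A gene ID was taken as different where the CPM (read counts scaled to the size of the library) of the adult library lay outside the range of all 4 early libraries by at least 4-fold. By this rule 1903 of the 35307 gene IDs differed. In 1270 of them the early libraries were lower than the adult library, and in 633 they were higher.

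The regenerating structures comprised 2 libraries of day 1 and 2 libraries of day 2 after dissociation. The later windows were days 3 to 4 with 6 libraries, days 6 to 8 with 6, days 10 to 14 with 4, days 16 to 18 (PJUV in the labels) with 3 and days 21 to 24 (JUV) with 2. The other side was 1 library of dissociated cells of a whole sponge, here called the adult library. No allele, strain or agent beyond dissociation is named in the labels, which do not say how many animals gave cells to a library or how long the adult cells stood after dissociation. The adult library belongs to sample set I, as does replicate 1 of each early day, and replicate 2 of each early day belongs to set II.

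A sponge has few kinds of cells, among them collar cells that drive the water current, flat cells that line its surfaces and mobile cells of the middle layer. When a sponge is dissociated, its cells can move, adhere to one another, sort and rebuild a body with a canal system, a skeleton and feeding chambers. In libraries of whole aggregates, fewer cells of a type and less RNA per cell cannot be told apart.

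The sources used here pair the gene IDs with no names, positions or sequences. A RefSeq table of 26717 genes for the assembly ocSycCili1.1 held 0 of the 35307 IDs. Genes are therefore described by their levels, pathways and cell type markers were not assessed, and the labelled material was not checked against markers. Only 2 IDs in each direction are named.

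Total counts were between 7425481 and 26087749 in the early libraries and 11398214 in the adult library. Neither pair of early replicates agreed within sampling noise (lowest chi-square per degree of freedom 47.2), so all 4 were kept as separate libraries. The adult library has no replicate, so the differences from it have no replicate check and no gene was tested between days 1 and 2 and the adult. It also carries the same index as replicate 2 of day 2, so these libraries could not have been separated by index within a single pool. In the series 4 indices were each used by 2 libraries. Whether the adult library shared a pool with the other early libraries is not known here. With 1 adult library, any difference of sequencing pool cannot be told apart from group.

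**Figure D1:**
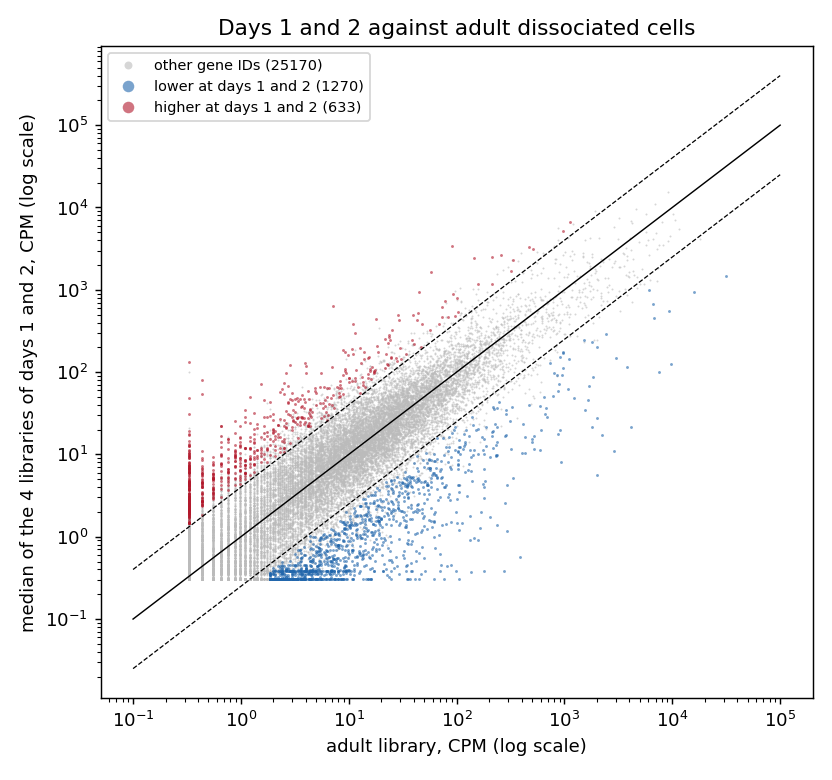
Median CPM of the 4 early libraries (vertical, log scale) against CPM of the adult library (horizontal, log scale), 1 point per gene ID, with counts of 3 or fewer drawn at 3 counts. The solid line marks equal levels and the dashed lines a 4-fold difference; the 1270 IDs lower at days 1 and 2 are blue and the 633 IDs higher at days 1 and 2 are red.

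The 1270 genes lower at days 1 and 2 were 5.55% of the 22872 IDs with more than 3 counts in the adult library. The 633 genes higher at days 1 and 2 were 3.33% of the 18992 IDs with more than 3 counts in each early library. These counts rest on CPM scaled by the trimmed mean of M values (TMM), with counts of 3 or fewer set to 3, so that a fold against them is a lower bound. Read without that limit on low counts, the rule gave 2129 lower and 1606 higher IDs. The balance of directions depended on the scaling. Of the differing genes, 33.3% were higher at days 1 and 2 under TMM and 44.3% under unscaled library totals. Over IDs with a count in all 26 libraries, totals shifted the median log2 ratio of the early mean to the adult by 0.18. The genes chosen are a description of these 5 libraries, and the rule itself fixes their direction.

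Among the genes lower at days 1 and 2, the adult library exceeded the highest early library by a median of 6.24-fold, with quartiles of 4.93 and 10.2. The gap reached 8-fold in 452 genes, 16-fold in 157 and 64-fold in 23. In 178 of them no early library held more than 3 counts, and in 30 all early libraries held 0. In 1121 of the 1270 genes the gap was wider than the whole range among the 4 early libraries, which had a median of 3.00-fold. The rule sets every gap at 4-fold or more, so this number follows largely from the rule. The adult level of these genes had a median of 9.08 CPM and was at least 100 CPM in 147 genes and at least 1000 CPM in 27. CPM is not adjusted for transcript length, so levels are not compared between genes.

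The genes higher at days 1 and 2 had a narrower gap. The lowest early library exceeded the adult library by a median of 5.34-fold, with quartiles of 4.47 and 7.46. The gap reached 8-fold in 135 genes, 16-fold in 35 and 64-fold in 2. The adult library held at most 3 counts of 171 of these genes and 0 counts of 28. The median early level of these genes had a median of 9.90 CPM and was at least 100 CPM in 81 genes and at least 1000 CPM in 13. The gap was wider than the range among the early libraries in 587 of the 633 genes. That range had a median of 2.11-fold, so this number too follows largely from the rule.

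The limit of 4-fold did not fall in a natural break. Of genes lower at days 1 and 2, 190 had a gap of 4 to 4.5 and 273 of 3.5 to 4. Of genes higher at days 1 and 2, 167 lay just inside and 202 just outside on the same limits. The nearest genes on either side had gaps of 4.007 and 3.9997 in the lower direction and 4.006 and 3.991 in the higher direction.

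MSTRG.21558 had the largest gap of the 603 lower genes with at least 10 CPM in the adult library. It stood at 1.15 and 0.555 CPM at day 1 and at 0.567 and 0.292 CPM at day 2, against 390 CPM in the adult library. The early values were 26, 5, 6 and 2 counts, against 3561 counts in the adult library, and the nearest early library was 339-fold lower than the adult. Without replicate 1 of day 1 the gap was 687-fold.

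MSTRG.16730 had the highest adult level among the lower genes. It stood at 1977 and 906 CPM at day 1 and at 3983 and 996 CPM at day 2, against 31317 CPM in the adult library. Replicate 1 was higher than replicate 2 on both days, and the nearest early library was 7.86-fold lower than the adult, or 15.8-fold without replicate 1 of day 2.

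MSTRG.19997 had the largest gap of the 249 higher genes with at least 10 CPM in every early library. It stood at 147 and 145 CPM at day 1 and at 50.4 and 118 CPM at day 2, against 0 counts in the adult library. A count of 0 allows up to 3 counts, for counting error only; against that limit the lowest early library was at least 154-fold higher, and at least 359-fold without replicate 1 of day 2.

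MSTRG.32408 had the highest early level among the higher genes. It stood at 7172 and 6106 CPM at day 1 and at 5927 and 7546 CPM at day 2, against 1116 CPM in the adult library. Its days 1 and 2 overlapped, and the lowest early library was 5.31-fold higher than the adult.

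**Figure D2:**
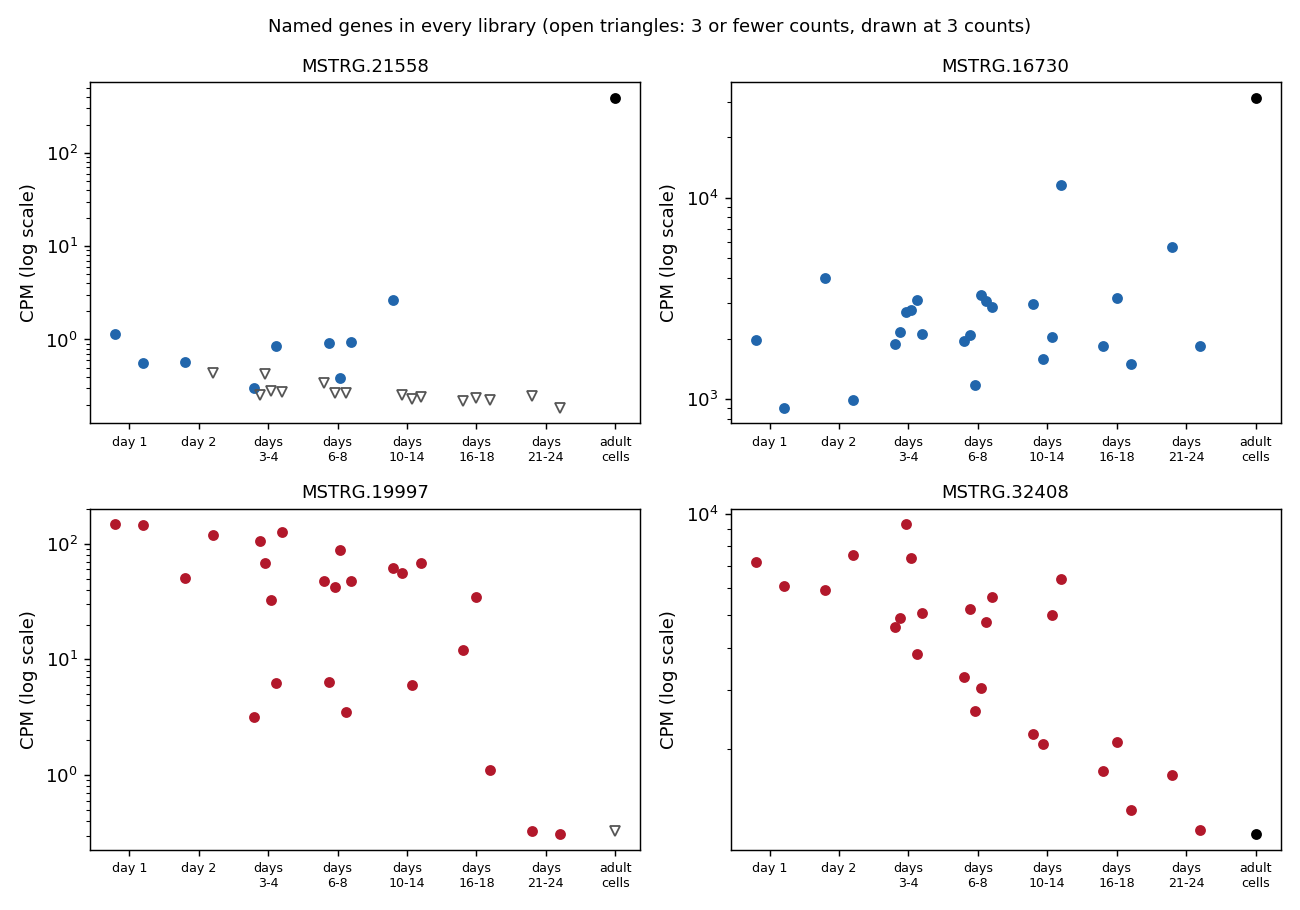
CPM (log scale) of the 4 named genes in every library, by window after dissociation with the adult library at the right; open triangles are libraries with 3 or fewer counts, drawn at 3 counts. MSTRG.21558 stays far below its 390 CPM in the adult library, and MSTRG.32408 comes close to its adult 1116 CPM in the last windows.

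Days 1 and 2 were not alike in these genes. Among the genes lower than in the adult, both libraries of day 2 lay above both libraries of day 1 in 300 of 1270 (23.6%) and below them in 153 (12.0%). Over the 22872 IDs of the same background these shares were 16.8% and 23.7%. Among the genes higher than in the adult, day 2 lay below day 1 in 242 of 633 (38.2%) and above it in 79 (12.5%). Over the 18992 IDs of that background the shares were 23.9% and 17.4%. In both directions, where the days did not overlap, day 2 was nearer to the adult library more often than day 1. The days were compared on CPM without the limit of 3 counts. Each early library held 3 or fewer counts of 265 to 637 of the 1270 lower genes, so days of these genes can be separated by a few counts. The rule used the same 4 libraries, and these shares are given with no test.

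The genes lower at days 1 and 2 made up a small part of the early libraries and a large part of the adult library. They took 0.962% and 0.928% of all counts at day 1 and 1.51% and 1.33% at day 2, against 15.1% in the adult library. The 10 genes with the highest adult level carried 8.11% of the adult counts, and the rest carried 6.96%. Their share lay between 2.22% and 2.93% at days 3 to 4 and between 2.86% and 3.57% at days 6 to 8. Over days 10 to 14 the 4 libraries held 3.95%, 4.06%, 3.02% and 6.35%. In PJUV libraries it was 5.19%, 5.01% and 4.68%, and in JUV libraries 5.37% and 5.84%. Each library of days 16 to 24 thus exceeded every library of days 1 to 8, and the highest reached 5.84%, against 15.1% in the adult. Without the same 10 genes that library held 4.15%, against 6.96% in the adult. These 10 genes were picked for their level in the adult library, so their large part in the remaining distance follows partly from that choice.

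The genes higher at days 1 and 2 took 5.44% and 6.00% of the counts at day 1 and 6.32% and 6.29% at day 2, against 0.630% in the adult library. The 10 genes with the highest early level carried 2.53% and 2.71% at day 1 and 3.37% and 3.47% at day 2. The rest carried 2.91% and 3.28% at day 1 and 2.95% and 2.82% at day 2, so the larger share at day 2 lay in these 10 genes. They were picked for their early level. The share of all 633 genes lay between 3.80% and 5.39% at days 3 to 4, between 2.22% and 3.91% by days 6 to 8 and between 1.86% and 3.35% over days 10 to 14. In PJUV libraries it was 1.98%, 1.91% and 2.24%, and in JUV libraries 2.21% and 2.06%. The libraries of days 3 to 4 did not overlap with those of days 16 to 24, and the latest libraries remained above the adult library.

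**Figure D3:**
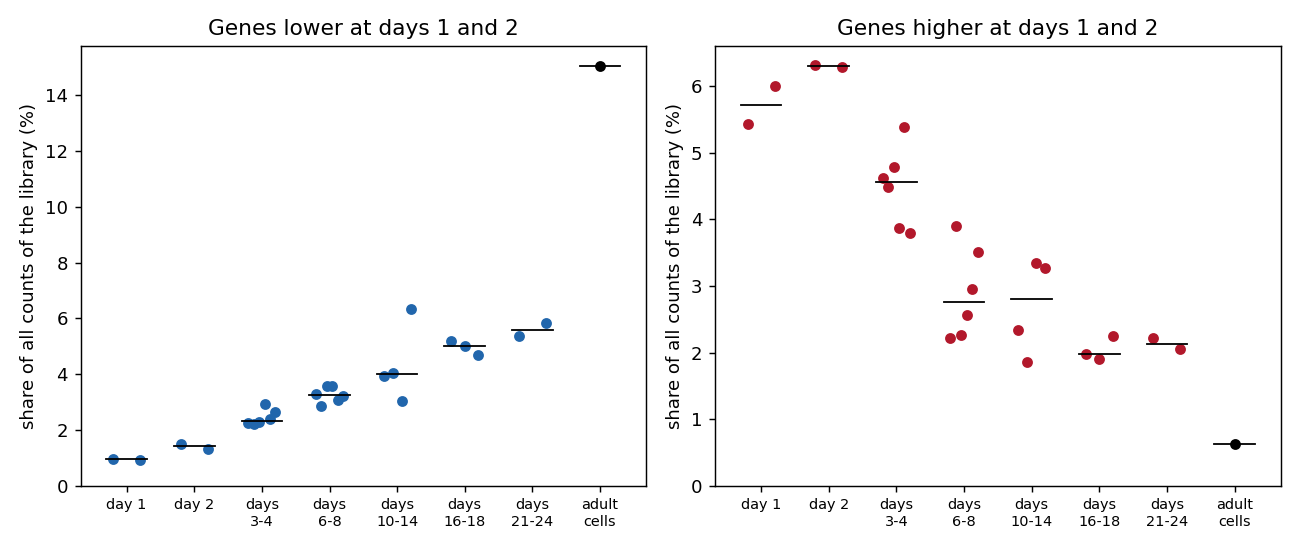
Share of all counts (percent, axes start at 0) held by the 1270 genes lower and the 633 genes higher at days 1 and 2, 1 point per library and a line at the median of each window, with the adult library in black. The share of the lower genes reaches 5.84% in the JUV window while the adult library holds 15.1%, and the share of the higher genes comes down to about 2%.

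The summed shares hid different courses of single genes. At days 16 to 24, 209 of the 1270 genes lower early (16.5%) were back, meaning that the adult level was at most 2-fold above the median of the 5 libraries. Another 695 (54.7%) were still at least 4-fold below the adult level in each of the 5 libraries, and 366 (28.8%) lay between. Over all 22872 IDs with more than 3 adult counts, 71.6% met the first condition and 9.54% the second. The adult library is part of both the rule and these classes, so the classes are a description.

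The lower genes that came back did so in different windows. Both ends of their course are set by the rule and the class, and whether single genes rose gradually was not assessed. Of the 209, 32 first reached the limit of 2-fold by days 3 to 4 and 60 by days 6 to 8, then 48 over days 10 to 14, 64 in the PJUV window and 5 in the JUV window. On the log2 scale the median difference between window and adult in this class was -3.55 on day 1 and -3.01 on day 2, then -1.98 by days 3 to 4, -1.12 by days 6 to 8 and -0.77 over days 10 to 14. It stood at -0.01 in the PJUV window and 0.26 in the JUV window. In 17 of them the late median was at least 4-fold above the adult level. In 25 of the 209 the window median met the limit in each window from days 3 to 4 onwards.

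The 695 genes still low at days 16 to 24 held 9.61% of the counts of the adult library. They are called genes that stayed low here, whatever their level in the windows between. An adult level of at least 100 CPM was found in 67 of them. Most of them were near the limit of detection in the late libraries: each late library held 3 or fewer counts of 433 to 465 of them, and each early library of 166 to 445. Their distance from the adult is therefore a lower bound for most in the late libraries, and its course over time is not resolved at this depth. Among the 185 with more than 3 counts in every early library, all 5 late libraries lay below all 4 early libraries in 47. In 338 of the 1270 lower genes no late library held more than 3 counts, and 68 of these had at least 10 CPM in the adult library. In 366 of the 695 the adult library was at least 4-fold above each of the 25 regenerating libraries. The others of the 695 came nearer than 4-fold in some library between days 3 and 14. In 43 of the 1270 none of the 25 held more than 3 counts. Both named genes of this direction were in the class that stayed low: MSTRG.21558 had 1 count in each PJUV library and 0 in each JUV library. MSTRG.16730 stood at 1834, 3188 and 1489 CPM at days 16 to 18 and at 5717 and 1829 CPM at days 21 to 24. Apart from 11510 CPM in replicate 5 of days 10 to 14, no earlier library exceeded 3983 CPM, so JUV replicate 1 stood above all the other libraries of the earlier windows.

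Of the 633 genes higher early, 250 (39.5%) were back at days 16 to 24, with a late median at most 2-fold above the adult level. Another 179 (28.3%) were still at least 4-fold above the adult in each of the 5 libraries, and 204 (32.2%) lay between. Over all 18992 IDs with more than 3 counts in each early library, 79.4% met the first condition and 4.00% the second. Of the 250, 64 first reached the limit by days 3 to 4 and 129 by days 6 to 8. Another 22 did so over days 10 to 14, 32 in the PJUV window and 3 in the JUV window. In 55 the window median met the limit in each window from days 3 to 4 onwards. Both ends of this course are again set by the rule and the class.

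The 250 genes that came back carried most of the early share. They held a median of 3.84% of the counts over the 4 early libraries, against 0.427% in the adult library, while the 179 that stayed high held 0.802% over the early libraries, against 0.0585% in the adult. The median log2 difference of the genes that came back was 4.01 on day 1 and 2.80 on day 2, then 1.78 by days 3 to 4, -0.09 by days 6 to 8 and -0.61 in the JUV window. The late value is set in part by the limit of 3 counts, since each late library held 3 or fewer counts of 116 to 151 of these genes. In 69 of them the late median was at least 4-fold below the adult level. The genes that stayed high kept a median of 3.27 on day 1 and 3.12 on day 2, then 3.22 by days 3 to 4, 3.15 by days 6 to 8 and 3.65 in the JUV window. In 107 genes each of the 25 regenerating libraries was at least 4-fold above the adult library. In 81 of the 633 genes no late library held more than 3 counts, and 43 of these also had at most 3 counts in the adult library.

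**Figure D4:**
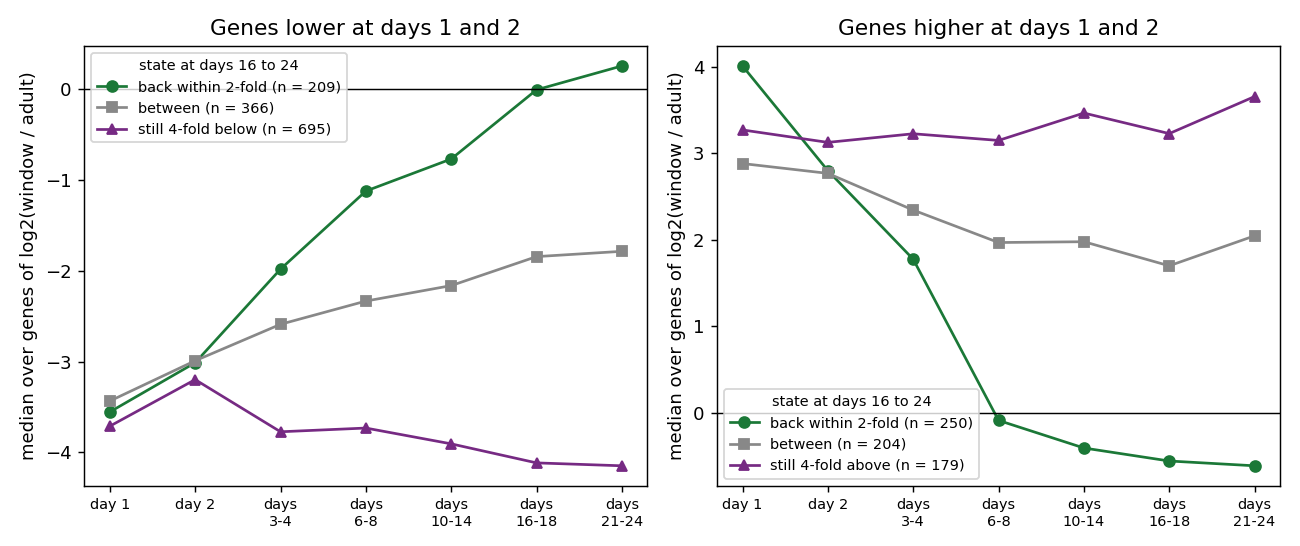
Median over genes of the log2 ratio of a window's median CPM to the adult CPM, by window after dissociation, for genes lower (left) and higher (right) at days 1 and 2, split by their state at days 16 to 24. The line of the 250 higher genes that came back passes just under the adult level at days 6 to 8 (-0.09), and that of the 209 lower genes is at -0.01 in the PJUV window and 0.26 in the JUV window. Counts of 3 or fewer were set to 3, so points of genes with few counts are limits.

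The 21 libraries from day 3 onwards took no part in the choice of the genes, and changes among them were tested with edgeR's quasi-likelihood test across all 23539 genes that passed its filter on low counts, with Benjamini-Hochberg adjustment over all of them and a threshold of 0.05. Nothing in the labels says that libraries of a window came from separate animals or cultures, so these p-values measure the spread between libraries, which may be technical.

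Days 16 to 24 were compared with days 3 to 4. Of the 1270 genes lower early, 929 were tested and 341 had too few counts. At days 16 to 24, 220 of the 929 (23.7%) were higher and 116 (12.5%) were lower. Over all genes tested, 10.3% were higher and 13.5% were lower. The median log2 fold change was 0.28 among the 929 and -0.05 over all genes tested. The number called lower rested on the last window and on genes with few counts: leaving out JUV replicate 1 gave 25 and leaving out JUV replicate 2 gave 27, with the lone JUV library assumed to vary like the others. Without replicate 5 of days 3 to 4 it was 74, with a replicate block 70, and it was 10 once genes averaging under 5 CPM were left out. Over all genes, leaving out these JUV libraries gave 1890 and 1893 lower, against 3187 with both, and 1521 higher without JUV replicate 2, against 2419.

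Of the 633 genes higher early, 623 were tested in the same comparison. At days 16 to 24, 270 of them (43.3%) were lower and 19 (3.05%) were higher, with a median log2 fold change of -0.82. Leaving out 1 library at a time gave 218 to 282 lower, and a mean of at least 5 CPM, which tests fewer genes, gave 132. The number higher fell to 10 without replicate 1 of days 21 to 24.

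The earliest step tested was days 6 to 8 against days 3 to 4, and changes were already called there. Of the 623 tested genes higher early, 172 (27.6%) were lower at days 6 to 8 and 5 were higher, against 5.39% lower and 2.87% higher over all genes tested. Of the 929 tested genes lower early, 69 (7.43%) were higher at days 6 to 8 and 11 (1.18%) were lower. The libraries of days 6 to 8 and 3 to 4 did not define the late classes. The rule and the classes fix both ends of each course, however. Genes that came back must change somewhere between them, so the contrast between classes follows largely from their definition. Among the higher genes that came back by days 16 to 24, 129 of the 240 tested were lower at this step. Among those that stayed high, 6 of 179 were lower and 4 were higher. Among the lower genes that came back, 41 of 209 were higher at this step, and among those that stayed low, 4 of the 366 tested were higher and 9 were lower. The numbers rested on single libraries: without replicate 3 of days 6 to 8, 109 of the genes higher early were lower and 24 of the genes lower early were higher. With a mean of at least 5 CPM, 94 of the genes higher early were lower. For the genes lower early, the number higher was also 37 and 36 when replicate 1 or 4 of days 6 to 8 was left out, and 40, 41 and 37 when replicate 2, 3 or 5 of days 3 to 4 was left out. Over all genes, 277 were higher and 714 lower without replicate 3 of days 6 to 8, and 347 to 424 were higher when 1 of the other libraries just named was left out.

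**Figure D5:**
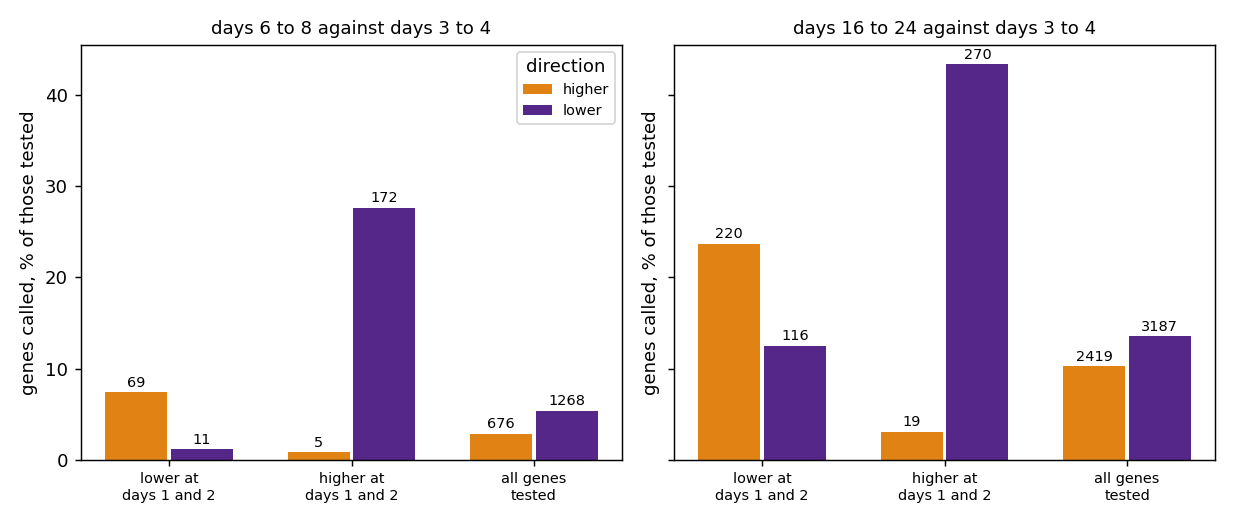
Percent of tested genes called higher or lower (edgeR, adjusted p under 0.05) at days 6 to 8 (left) and at days 16 to 24 (right) against days 3 to 4, for genes lower at days 1 and 2, genes higher at days 1 and 2 and all 23539 genes tested; numbers of genes stand above the bars. Of the genes higher at days 1 and 2, 43.3% were lower at days 16 to 24, against 13.5% of all genes tested.

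Of the named genes, MSTRG.32408 stood at 1717, 2094 and 1316 CPM at days 16 to 18 and at 1676 and 1151 CPM at days 21 to 24, against 4609, 4885, 9294, 7391, 3834 and 5050 CPM at days 3 to 4. These libraries did not overlap, and the gene fell by 1.91 on the log2 scale (edgeR adjusted p 0.000342, and 8.17e-08 to 0.00735 over the alternatives). At days 6 to 8 it spanned 2584 to 5653 CPM with a median of 4011, overlapping with days 3 to 4 (edgeR adjusted p 0.301).

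MSTRG.19997 stood at 12.0, 34.7 and 1.12 CPM at days 16 to 18 and at 0.327 and 0.308 CPM at days 21 to 24, against 3.16, 106, 67.7, 32.7, 6.22 and 126 CPM at days 3 to 4. The windows overlapped, and the fitted log2 fold change was -4.64 (edgeR adjusted p 0.0119). That call was lost without JUV replicate 1 or 2 (edgeR adjusted p 0.0808 and 0.0876), where the log2 fold change was -4.67 and -4.63, and with a replicate block from the titles (edgeR adjusted p 0.0568, log2 fold change -4.44), and the adjusted p lay between 1.44e-05 and 0.0876 over the alternatives. At days 6 to 8 it spanned 3.52 to 88.4 CPM with a median of 44.7, and its difference from days 3 to 4 did not pass the threshold (edgeR adjusted p 0.773).

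MSTRG.16730 spanned 1489 to 5717 CPM with a median of 1834 at days 16 to 24, against 1880 to 3092 CPM with a median of 2442 at days 3 to 4. The difference did not pass the threshold (edgeR log2 fold change 0.22, adjusted p 0.762). MSTRG.21558 spanned 0 to 0.0782 CPM at days 16 to 24, against 0.0937 to 0.852 CPM at days 3 to 4, and did not pass the threshold either (edgeR adjusted p 0.088); nearly all of these libraries held a few counts at most.

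The same 4-fold rule was applied to the other windows against the same adult library. It gave 917 lower and 414 higher genes for the 6 libraries of days 3 to 4, and 1141 and 501 for the 6 libraries of days 6 to 8. For the 4 libraries of days 10 to 14 it gave 1731 and 851, and for the 5 libraries of days 16 to 24 it gave 2181 and 950. A range over more libraries is harder to lie outside, so only days 1 and 2 and days 10 to 14 had equal numbers, with 4 libraries each. Days 1 and 2 gave fewer genes in both directions. These 2 sides still differ, since the early side joins 2 separate windows and its smallest total was 7425481 counts, against 11469047 at days 10 to 14. In the lower direction every window was read over the same 22872 IDs with more than 3 adult counts. Of these, 1270 (5.55%) were lower at days 1 and 2, against 1731 at days 10 to 14 and 2181 (9.54%) at days 16 to 24. In the higher direction the IDs with enough counts depend on the window, with 18992 at days 1 and 2 (3.33% called). They were not matched between windows, so 633 and 851 are not compared as shares. All of these counts share the 1 adult library, and the difference between them was not tested.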

How the data were processed

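The authors deposited a table of raw counts for each library, with whole numbers by gene ID and totals that differ between libraries. Per the submitters' processing notes, Trimmomatic 0.36, HISAT2, StringTie, featureCounts, DESeq2 and Bowtie2 were used; their roles, the genome build, the gene models and strand setting are not given in the sources used here. Per the labels' protocols, RNA was extracted with Trizol and libraries were made with a Lexogen SENSE mRNA kit. A gene can be split over several IDs or share reads with a copy or an overlapping ID, so single IDs are uncertain to that degree.

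Groups and replicate numbers were taken from the titles. TMM factors were computed over all 26 libraries and were 0.802 for the adult library and 0.867 to 0.937 for the early ones. A gene was a member where the adult CPM was at least 4-fold outside the range of the 4 early libraries, with counts of 3 or fewer set to 3; medians of ratios use the same limit. Shares of counts use unscaled totals. Named genes were, in each direction, the one with the largest gap and the one with the highest level on its higher side, among members with at least 10 CPM there. The members, lists and tests were chosen with earlier results of these data known.

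The 21 later libraries were fitted in edgeR 4.0.16 (R 4.3.3, limma 3.58.1; filterByExpr, TMM, glmQLFit with robust = TRUE) with window as the only factor and a common dispersion of 0.180; the filter left out 11768 IDs. Days 16 to 24 are the mean of the last 2 windows. The test is two-sided and yields no standard error. Alternatives were other scalings, DESeq2 1.42.0, other filters, a replicate block and leaving out libraries. The procedures were tested on simulated data. Tables were handled with Python 3.11.15, NumPy 2.4.6 and pandas 2.3.3. Intervals and limits cover counting error only.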

Additional observations from a re-analysis of the deposited data

Results flagged for a closer look

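Dixon's test for a value far from the rest of its window was applied to 24 sets of values, each over 4 to 6 libraries, and 3 values stood apart; chance gives about 1 in 20. MSTRG.16730 stood at 11510 CPM in replicate 5 of days 10 to 14, against 1588 to 2982 CPM in the other 3 libraries. The same library had the highest share of counts in genes lower at days 1 and 2 among the 25 regenerating libraries, 6.35%. MSTRG.21558 stood at 2.63 CPM in replicate 2 of days 10 to 14, against 0 to 0.153 CPM in the others. At days 3 to 4 it stood at 0.852 CPM in replicate 5, against 0.0937 to 0.301 CPM. Both values of MSTRG.21558 are low beside its 390 CPM in the adult library.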

How the results depend on the processing

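The number of genes lower and higher at days 1 and 2 than in the adult moved by more than 1.5-fold under several readings of the rule. It was 2129 and 1606 without the limit on low counts, 787 and 380 with a limit of 10 counts, 3408 and 2551 at 2-fold, 452 and 135 at 8-fold, 843 and 349 with at least 5 CPM on the higher side, and 2106 and 1647 with day 1 alone. Fewer libraries make the range narrower, and the number also moved there: set I alone gave 2036 and 1092, and set II alone gave 1100 higher genes. Leaving out 1 early library gave 1348 to 1626 lower and 715 to 846 higher. With at least 5 CPM, 420 genes stayed low, 145 higher genes came back and 87 stayed high. Leaving out 1 late library gave 703 to 727, 250 to 256 and 184 to 192 for these, and 198 to 228 lower genes that came back.

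For days 16 to 24 against days 3 to 4, a mean of at least 5 CPM, which tests fewer genes, left 1937 lower calls over all genes, 10 among genes lower early and 132 among genes higher early. Leaving out 1 library gave, over all genes, 1521 to 2402 higher and 1890 to 3139 lower. Among genes lower early it gave 152 to 242 higher and 25 to 124 lower, and among genes higher early 10 to 24 higher and 218 to 282 lower. For days 6 to 8 against days 3 to 4, DESeq2 called 110 higher and 17 lower among genes lower early and 8 higher among genes higher early. A mean of at least 5 CPM gave 4 lower among genes lower early and 94 lower among genes higher early. Fitting only the libraries compared gave 400 higher and 797 lower over all genes, 1 lower among genes lower early, and 1 higher and 106 lower among genes higher early. Leaving out 1 library gave 277 to 903 higher and 714 to 1525 lower over all genes, 24 to 88 and 6 to 20 among genes lower early, and 1 to 6 and 109 to 192 among genes higher early. MSTRG.16730, never called, changed sign: its log2 fold change ran from -0.31 to 0.51 for days 16 to 24 and from -0.14 to 0.11 for days 6 to 8 when 1 library was left out. Beyond the fewer libraries or genes that some of these settings leave, the cause of these moves was not tested.

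Replicate numbers did not pair the libraries: of 49 same-numbered pairs from different windows, 12 had deviations that correlated above 0.1, and 7 of 25 libraries correlated best with their own number. With the replicate block from the titles, genes lower early called lower numbered 70 at days 16 to 24 and 6 at days 6 to 8, and MSTRG.19997 had an edgeR adjusted p of 0.0568 (log2 fold change -4.44). With the block from the set label, 7 genes lower early were lower at days 6 to 8. Of the comparisons of counts with an alternative, 251 stayed within 1.5-fold and 69 did not.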

Other observations

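The spread among libraries of the same window was looked at after the values were seen and is given with no test. A gene near 1 CPM in most libraries can reach the mean used here through 1 high library, which favours a wide range. Genes lower at days 1 and 2 were restricted to those with a window mean of 5 CPM or more. At days 3 to 4 the highest library exceeded the lowest by at least 16-fold in 61 of 305 such genes (20%). Over all IDs with that mean it did so in 3.47% of 12586. The shares were 16.7% of 359 against 2.02% at days 6 to 8 and 23.8% of 383 against 2.62% at days 10 to 14. Genes higher at days 1 and 2 differed in this way at days 3 to 4, with 51 of 372 (13.7%), and less at days 6 to 8 (4.79% of 292) and days 10 to 14 (2.42% of 289). With a median of at least 5 CPM in place of the mean, the shares for genes lower at days 1 and 2 were 14.1% of 276, 13.5% of 327 and 18.1% of 348 in these windows, against 2.65%, 1.45% and 2.00% over all IDs.

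MSTRG.19997 also differed widely between libraries of a window. At days 3 to 4 it stood at 3.16 and 6.22 CPM in replicates 1 and 5 and between 32.7 and 126 CPM in the other 4. At days 6 to 8 replicates 2 and 5 stood at 6.36 and 3.52 CPM, and the other 4 between 42.0 and 88.4 CPM. At days 10 to 14 replicate 4 stood at 5.97 CPM, and the other 3 between 55.8 and 67.5 CPM. Whether these libraries share a parent animal is not given in the labels and was not tested.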
